A study of Mus musculus with 13 samples.

Results

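Cytosolic ribosomal proteins are the protein part of the 80S ribosome, which translates nuclear-encoded mRNA. Genes were taken as members when their symbol in the count files had the form Rpl or Rps with a number (plus Rplp0, Rplp1, Rplp2 and Rpsa, and without the Rps6 kinases) and their mean was at least 1 CPM, counts scaled to a library of 1000000 counted reads, over all files. Of 24061 symbols, 81 matched by name and 76 met the minimum: 45 of the large (60S) and 31 of the small (40S) subunit. The 13 heart samples came from male C57BL/6N mice, 13 weeks old and on chow. The allele studied, E3A, is a knock-in of Cpt1b, the muscle carnitine palmitoyltransferase that admits long-chain fatty acids to mitochondria. The allele lowers the sensitivity of the enzyme to its inhibitor malonyl-CoA. There were 4 WT/WT hearts, 4 heterozygous WT/E3A hearts and 5 homozygous E3A/E3A hearts, with no other allele or agent named in the labels. The labels give no Cre, promoter or number of founders. A note in the labels marks 4 libraries as possible outliers: WT/WT 1, WT/E3A 1, E3A/E3A 1 and E3A/E3A 2 (genotype and replicate number). They are called the noted libraries here, and no source used here gives the basis of the note.

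Ribosomal protein mRNAs are among the most abundant mRNAs of a cell, and most of the proteins are found in every ribosome. Most of them begin with a 5′ terminal oligopyrimidine (TOP) tract, through which mTORC1 and the RNA-binding protein LARP1 set their translation. Heart and skeletal muscle are known for a paralog of their own, Rpl3l, which takes the place of Rpl3 in part of the ribosomes. Genes outside the name rule that also code for ribosomal proteins, such as Fau, were followed as a separate list.

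Counted reads ranged from 20.1 M to 52.6 M per library. They ranged from 23.5 M to 52.6 M in the noted libraries and from 20.1 M to 41.5 M in the other 9. Reads on Cpt1b were 53 to 139 per library, and a base change in it cannot be checked in counts per gene. Cardiomyocyte identity was clear: the 10 cardiomyocyte markers, among them Myh6, Actc1 and Tnnt2, summed to at least 92554 CPM in each library, and lung markers to at most 1.1 CPM. The 4 hemoglobin genes of the blood list were listed at 0 in every library. Each sample title opens with C2, C3, C4 or C6, a prefix of unstated meaning. All 3 libraries of C2 and 1 of the 4 of C4 were noted, and none of C3 and C6.

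All 76 members passed edgeR's filter on low counts, so none was lost before testing. The members just inside the minimum were Rpl34 (1.14 CPM over all libraries, scaled by totals), Rps4l (18.2 CPM), which the annotation lists as a transcribed processed pseudogene, and Rpl39 (22.6 CPM). Rpl34 averaged 1.71 CPM in the noted libraries and 0.882 CPM in the other 9, so it met the minimum only through the noted libraries, where it was high. Just outside were Rps27 (0.381 CPM, 171 reads in all), Rpl30 (0.173 CPM, 65 reads) and Rpl39l (0.0660 CPM, 29 reads), followed by Rpl10l with 1 read and Rpl26 with 0 reads. Rps27, Rpl30 and Rpl26 code for core subunits that every ribosome holds, and are nearly absent from these counts. In Rps27, 98.4% of the 100-base windows of the transcript also occur in another annotated gene, in Rpl30 53.5% and in Rpl26 36.8%. No source used here says how such reads were counted. Over the 76 members, Spearman's rho of shared windows with CPM per kilobase in the 9 libraries without the note was -0.02. Rpl10, the member with the most shared windows (91.6%), was at 171 CPM over all libraries. The part of shared sequence in the low counts was not tested. The rule therefore leaves 76 genes that are not a complete list of ribosomal proteins.

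Transcript starts are shown for members that carried the TOP letters and moved in opposite directions in the noted libraries, and for Rpl3l. RefSeq (GRCm38.p6) gives promoter windows for 56 of the 76 members, 68 windows in all. Each line below holds 40 bases before and 20 after the annotated start, and capitals mark the pyrimidine run that begins at the start (for Rpl3l, the start base alone). The positions are chr7:141447611-141447670 on the plus strand for Rplp2, chr9:120571477-120571536 plus for Rpl14, chr11:114668540-114668599 plus for Rpl38, chr14:18270967-18271026 minus for Rpl15, chr7:4792925-4792984 plus for Rpl28 and chr17:24727786-24727845 plus for Rpl3l.
Rplp2: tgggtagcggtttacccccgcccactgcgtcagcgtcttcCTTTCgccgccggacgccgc
Rpl14: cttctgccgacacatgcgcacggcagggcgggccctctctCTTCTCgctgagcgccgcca
Rpl38: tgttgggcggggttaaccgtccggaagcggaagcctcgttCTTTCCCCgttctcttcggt
Rpl15: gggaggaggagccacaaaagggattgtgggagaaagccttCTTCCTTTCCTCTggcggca
Rpl28: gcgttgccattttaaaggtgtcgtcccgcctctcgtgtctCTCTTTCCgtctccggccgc
Rpl3l: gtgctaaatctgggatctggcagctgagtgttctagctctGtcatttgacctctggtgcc

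A start of C followed by at least 4 pyrimidines (C or T), read on the sense strand, was present in 12 members. That is 17.6% of the member windows, against 2.51% of all 32851 windows in the table. Annotated starts can lie some bases off the true start, and a window without these letters says only that they are not at the annotated position. On either strand of the 300-base windows, CCGGAAG (the core bound by ETS factors such as GABP) occurred in 35.3% of member windows and 8.86% of all. AAGATGGC (a core bound by YY1) occurred in 8.82% and 2.75%, and TATAAA in 8.82% and 13.6%. CCGGAAG and AAGATGGC can share bases, as can AAGATGGC and TATAAA, but in 0 member windows did matches of different motifs overlap.

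**Figure D1:**
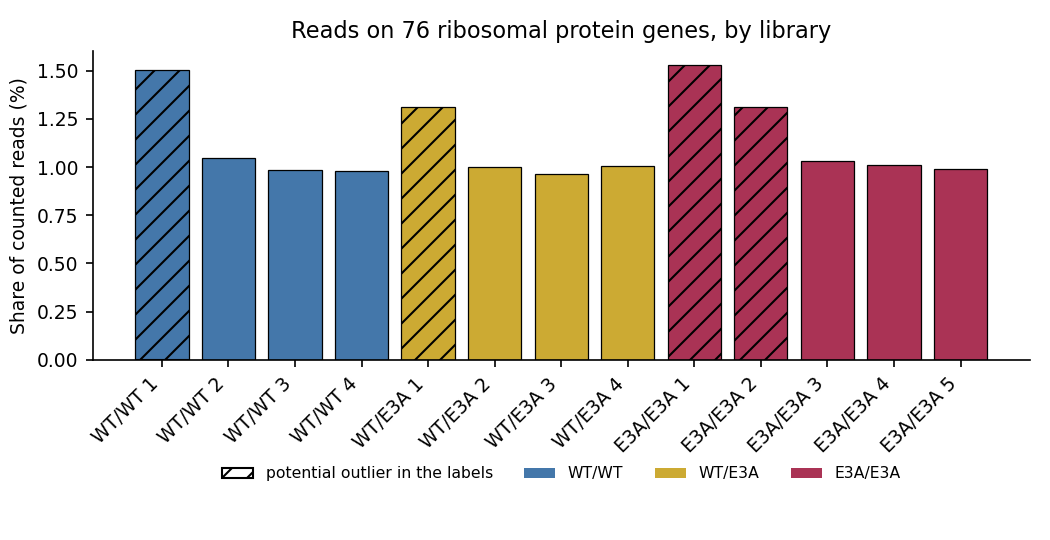
Share of counted reads (%, vertical axis) on the 76 ribosomal protein genes in each of the 13 libraries (horizontal axis), coloured by genotype, with hatching for the 4 noted libraries. The noted libraries reach 1.31 to 1.53% and the other 9 stay between 0.962 and 1.04%.

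The members together took about the same share of reads in every heart that was not noted, whatever its genotype. The share was 1.04, 0.983 and 0.981% in WT/WT replicates 2 to 4, 0.999, 0.962 and 1.01% in WT/E3A replicates 2 to 4, and 1.03, 1.01 and 0.989% in E3A/E3A replicates 3 to 5. The mean of these 9 was 1.001% (SD 0.0262, n = 9). The noted libraries stood above all of them: 1.51% in WT/WT 1, 1.31% in WT/E3A 1, 1.53% in E3A/E3A 1 and 1.31% in E3A/E3A 2. Their mean was 1.41% (SD 0.118, n = 4), and the ranges of the noted and other libraries did not overlap.

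Levels per transcript length spread over a wide range. Counted over all 13 libraries, as CPM per kilobase of transcript, the highest were Rplp1 (629), a stalk protein of the large subunit, Rps14 (476) and Rps2 (476), both of the small subunit. The place of Rps14 rested on the noted libraries. In the libraries without the note, scaled with TMM factors, it was at 274, below Rplp1 (416), Rps2 (397) and Rps9 (371). The lowest were Rpl34 (2.37), Rps15a (17.6) and Rps4l (19.3). The length of Rps15a in the annotation was 5179 bases and that of Rps20 3706 bases, against a median of 832 over the members, so their levels per kilobase depend on the transcript model used. Of the 76 members, 69 had at least 1 100-base window that also occurs in another annotated gene, and the median member shared 39.2% of its windows. Reads in such windows could be split among copies or left uncounted, so levels between genes are uncertain, while the comparison of a gene between libraries rests on the same windows in each.

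Ribosomal protein mRNA varied little between the 9 libraries without the note. The coefficient of variation had a median of 3.64% over the members (1.63 to 20.3%), against 7.80% over all genes tested, and 65 members were under 5%. Tested genes of like abundance (70.6 to 147 CPM, the middle of the members' range, 1396 genes) had a median of 4.70%. The most variable members were Rpl34 (20.3%), which had the fewest reads, Rps4l (19.3%) and Rps9 (12.8%), a core protein of the small subunit. Rps9 stood at 304, 268 and 234 CPM in WT/WT replicates 2 to 4, 271, 222 and 289 CPM in WT/E3A replicates 2 to 4 and 338, 295 and 290.1 CPM in E3A/E3A replicates 3 to 5. WT/WT overlapped both other genotypes. The E3A/E3A values all lay above those of WT/E3A, by a small margin (lowest 290.1 CPM, against a highest of 289 CPM). From here on, CPM of single libraries are scaled with TMM factors.

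Ribosomal protein genes did not pass the test in any genotype comparison, with or without the noted libraries. With all 13 libraries, edgeR called 0 of 76 members in E3A/E3A against WT/WT, where 0.00695% of all 14387 tested genes were called in either direction. It called 0 in WT/E3A against WT/WT and 0 in E3A/E3A against WT/E3A, where no tested gene was called (0.0%). Members with an unadjusted p under 0.05 numbered 0, 0 and 2 in the same order, and DESeq2 and limma-voom with quality weights called 0 in each. The median member log2 fold change was 0.05, -0.06 and 0.14, against -0.02, -0.00 and -0.02 over all tested genes. Members above 0 numbered 56, 6 and 64 of 76. The groups hold 1, 1 and 2 noted libraries, and each of these 3 comparisons shares a group with the next.

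**Figure D2:**
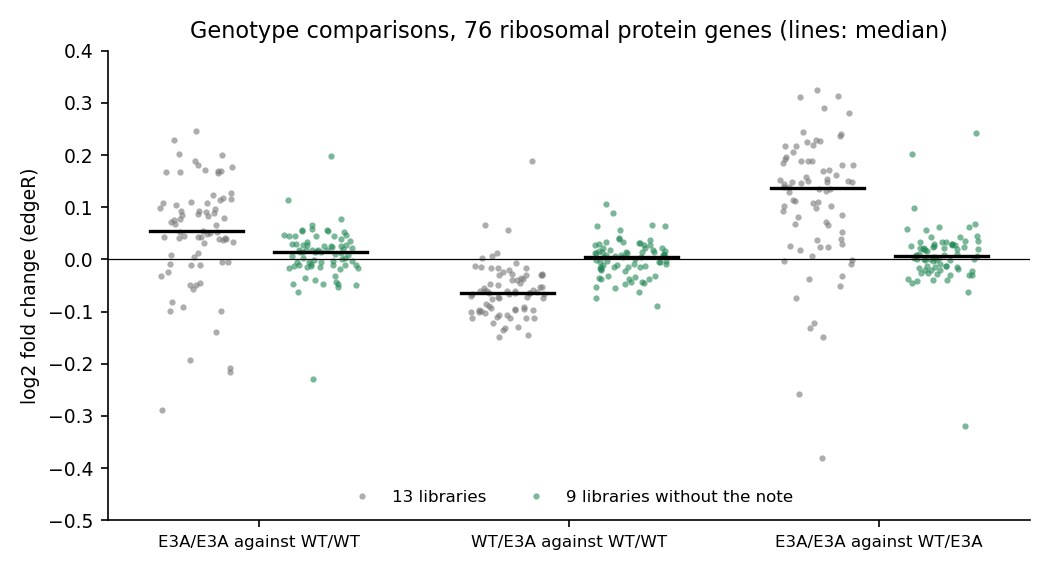
edgeR log2 fold change (vertical axis) of the 76 ribosomal protein genes in the 3 genotype comparisons (horizontal axis), with all 13 libraries in grey and with the 9 libraries without the note in green; each point is a gene and each line the median. The grey medians lie at 0.05, -0.06 and 0.14 and the green ones at 0.01, 0.00 and 0.01.

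Without the noted libraries, 3 hearts per genotype remained and the differences shrank to near 0. edgeR again called 0 members in each comparison, where 0.271% of 14373 tested genes were called in E3A/E3A against WT/WT, 0.0209% in WT/E3A against WT/WT and 0.0417% in E3A/E3A against WT/E3A. No member had an unadjusted p under 0.05 (0 in each). The medians were 0.01, 0.00 and 0.01, and 73, 75 and 73 of the 76 members lay within 0.1 of 0 on the log2 scale. The median standard error of a member was 0.05 in each of the 3, against 0.24, 0.25 and 0.24 with 13 libraries. In E3A/E3A against WT/WT the members farther out were Rps9 at 0.20 (SE 0.13), Rpl34 at 0.11 and Rps4l at -0.23 (SE 0.20), named after their values were seen. The same genes were farther out in E3A/E3A against WT/E3A: Rps9 at 0.24 (SE 0.13), Rpl34 at 0.20 and Rps4l at -0.32 (SE 0.20). In simulated counts of the same size, for E3A/E3A against WT/WT alone, 200 genes drawn from all tested genes were changed by 0.5 on the log2 scale. Of these, 59% were recovered with the 9 libraries and 0% with the 13. The draw was not limited to the members, so these shares do not describe them. Noise was drawn for each library on its own, with no shift shared by the noted libraries.

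The lowest unadjusted p-values with 13 libraries belonged to Rps21 and Rpl31, and their extreme values were in noted libraries. Rps21, a small subunit protein, stood at 86.2, 82.7, 80.3 and 82.4 CPM in WT/WT replicates 1 to 4, at 64.2, 78.8, 80.5 and 87.1 CPM in WT/E3A and at 131, 104, 78.4, 88.5 and 84.5 CPM in E3A/E3A replicates 1 to 5. The highest values were the 2 noted E3A/E3A libraries and the lowest was the noted WT/E3A library, and the remaining values of the genotypes overlapped. Its log2 fold change in E3A/E3A against WT/E3A was 0.32 (SE 0.15, unadjusted p = 0.0467, edgeR adjusted p = 1), and without the noted libraries 0.03 (SE 0.06).

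Rpl31, a large subunit protein near the peptide exit, showed the same order. It stood at 57.8, 59.3, 57.4 and 58.9 CPM in WT/WT, at 45.6, 56.5, 51.2 and 62.9 CPM in WT/E3A and at 75.6, 69.9, 59.9, 61.0 and 61.5 CPM in E3A/E3A. In E3A/E3A against WT/E3A its log2 fold change was 0.28 (SE 0.11, unadjusted p = 0.0251, edgeR adjusted p = 1), and 0.10 (SE 0.06) without the noted libraries. Among the next lowest p-values were those of Rpl35a and Rpl17 in WT/E3A against WT/WT (-0.14 and -0.11) and of Rps18 in E3A/E3A against WT/E3A (0.23), each with an edgeR adjusted p of 1. Between libraries of 1 title prefix, the median member difference ranged from -0.16 to 0.00, while single members differed more. For E3A/E3A less WT/WT it was -0.05 (-0.87 to 1.05) within C2 (2 against 1 library, all noted). Within C3 (2 against 1, none noted) it was -0.02 (-0.18 to 0.08). For WT/E3A less WT/WT within C3 (1 against 1) it was -0.02 (-0.20 to 0.35). For E3A/E3A less WT/E3A it was 0.00 (-0.31 to 0.21) within C3 and -0.16 (-0.96 to 0.51) within C4. The C4 value set 1 E3A/E3A library without the note against 3 WT/E3A libraries, the noted WT/E3A 1 among them.

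The Rpl3l part of the Rpl3 pair did not pass the test in any genotype comparison. Rpl3l reads were 71.7, 71.2, 71.4 and 72.6% of the reads on both genes in WT/WT replicates 1 to 4, 73.5, 70.4, 72.8 and 74.3% in WT/E3A, and 71.7, 71.0, 72.8, 72.9 and 74.2% in E3A/E3A. With all 13 libraries the 3 genotypes overlapped. The means were 71.7% (SD 0.617, n = 4), 72.7% (SD 1.69, n = 4) and 72.5% (SD 1.21, n = 5). The log2 ratio of the counts differed by 0.06 in E3A/E3A against WT/WT (exact two-sided permutation p = 0.294), by 0.07 in WT/E3A against WT/WT (exact permutation p = 0.286) and by -0.02 in E3A/E3A against WT/E3A (exact permutation p = 0.817). After adjustment over the 4 ratio comparisons (the noted libraries included) these exact permutation p-values were 0.587, 0.587 and 0.817. Without the noted libraries, the 3 E3A/E3A shares (72.8 to 74.2%) were all above the 3 WT/WT shares (71.2 to 72.6%), and WT/E3A overlapped both. The log2 ratio then differed by 0.11 in E3A/E3A against WT/WT (exact two-sided permutation p = 0.1, adjusted 0.3 over the 3 comparisons), and 0.1 is the smallest p that 3 against 3 libraries can give. In WT/E3A against WT/WT it differed by 0.05 (exact permutation p = 0.6) and in E3A/E3A against WT/E3A by 0.06 (exact permutation p = 0.7). In Rpl3, 79.4% of the 100-base windows also occur in another annotated gene and in Rpl3l 0%, so the level of Rpl3 is the less certain of the pair.

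The noted libraries differed from the rest in most ribosomal protein genes, which rose more often than they fell. In edgeR with genotype as a covariate, 67 of 76 members were called between the 4 noted and the other 9 libraries, 55 higher and 12 lower. Of all tested genes 75.2% were called, 37.0% higher and 38.2% lower, and 88.2% of the members. The median member log2 fold change was 0.58, against -0.02 over all tested genes. Rpl34 was among the members called higher, a direction its selection favours, and without it 54 of 75 were higher and 12 lower (median 0.58). The large subunit had 36 higher and 7 lower of 45 (median 0.58), and the small subunit 19 higher and 5 lower of 31 (median 0.58). Because the note may rest on these same counts, the p-values are no independent evidence for the difference. Its size is given by the log2 fold changes.

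The upward lean depended on the scaling. Scaling by library totals only moved the median of all tested genes from -0.02 to -0.31 and that of the members to 0.29, with 43 members called higher and 16 lower, where 23.1% of all tested genes were higher and 52.6% lower. The distance between the median member and the median gene was 0.60 with either scaling. Myh6, the main cardiac myosin heavy chain, took 6.59 to 9.49% of reads in the noted libraries and 3.90 to 4.61% in the others. In bulk hearts, a change in the number of cells of a type and a change of RNA per cell cannot be told apart.

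**Figure D3:**
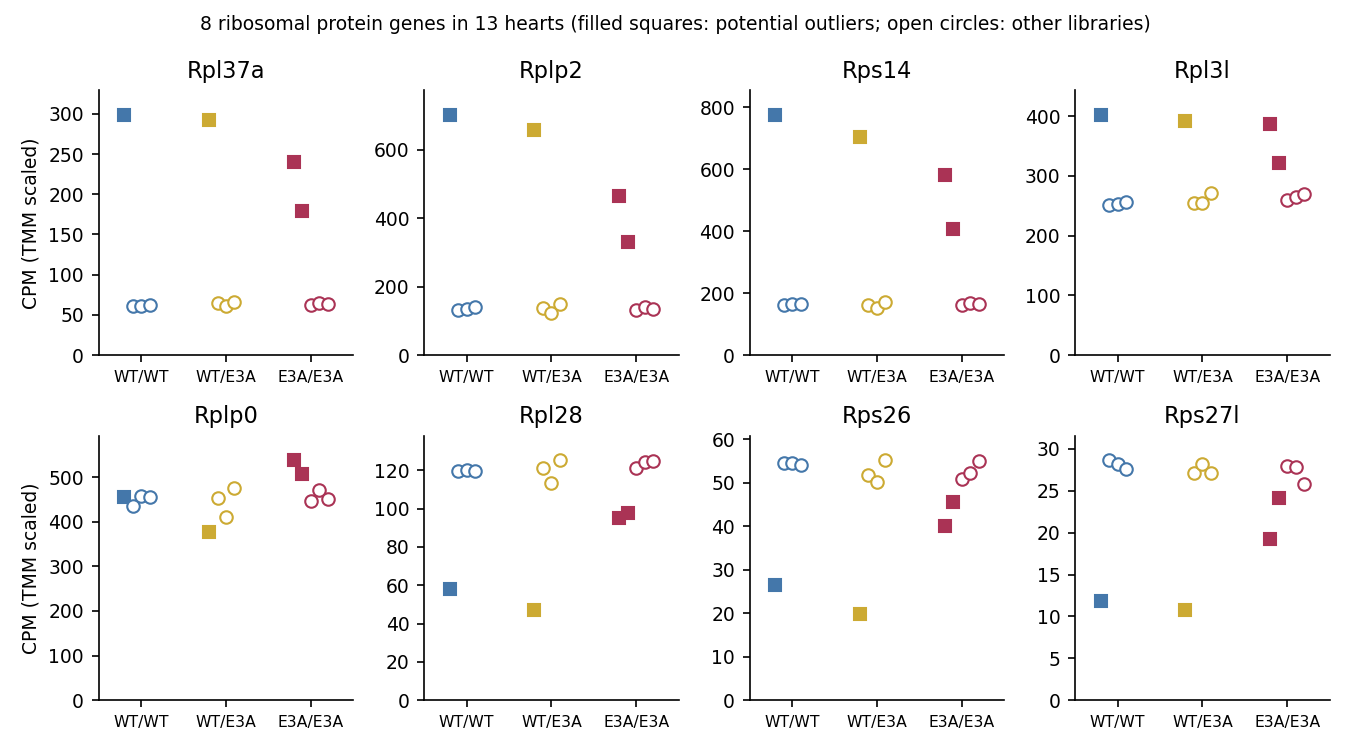
Level (CPM after TMM scaling, vertical axes from 0) of 8 ribosomal protein genes in each of the 13 hearts, by genotype (horizontal axes); filled squares are the 4 noted libraries and open circles the other 9. In Rpl37a, Rplp2 and Rps14 the squares lie above every circle, in Rpl28, Rps26 and Rps27l below, and in Rplp0 the squares (377 to 539 CPM) span the circles (411 to 474 CPM).

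The ribosomal stalk, where elongation factors bind, is built of Rplp0 with pairs of Rplp1 and Rplp2, and its genes parted in the noted libraries. Rplp2 (chromosome 7, 141447370 to 141451585, GRCm38) stood at 702 CPM in WT/WT 1, 658 in WT/E3A 1, 464 in E3A/E3A 1 and 330.1 CPM in E3A/E3A 2, and the other 9 libraries lay between 123 and 148 CPM (median 135). Every noted library was above every other one, with the 2 E3A/E3A libraries the lower of the 4. In edgeR this was a log2 difference of 2.0 (SE 0.12, adjusted p = 5.29e-08). Rplp1 was at 760.0, 696, 564 and 410 CPM in the same libraries and at 191 to 220 CPM in the other 9 (1.56, SE 0.10). For Rplp0, the base of the stalk and a common reference gene, the noted values were 455, 377, 539 and 506 CPM and the others 411 to 474 CPM. The groups overlapped and it was not called (0.03, SE 0.07, edgeR adjusted p = 0.709), but it was called lower with library totals only (-0.25, adjusted p = 0.0187).

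The highest rise was that of Rpl37a, a zinc-binding protein of the large subunit (chromosome 1, 72711290 to 72713813). It stood at 299, 293, 240.0 and 179 CPM in the noted libraries (WT/WT 1, WT/E3A 1, E3A/E3A 1 and E3A/E3A 2, an order kept below) and at 60.7 to 66.5 CPM in the other 9 (median 62.5). The noted values were all above the others, by a log2 fold change of 2.01 (SE 0.09, edgeR adjusted p = 2.55e-08). Rps14, of the small subunit platform, had 776, 703, 580 and 408 CPM against 152 to 171 CPM (1.93, SE 0.10). Rpsa, which is also known as the laminin receptor, had 1146, 1029, 751 and 522 CPM against 236 to 269 CPM (1.75, SE 0.13). Rpl41, the smallest ribosomal protein, had 327, 300.0, 255 and 173 CPM against 82.0 to 95.1 CPM (1.62, SE 0.10). In these 4 genes too the E3A/E3A libraries were the lower of the noted ones and no noted library overlapped the rest.

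Falls were fewer and smaller. Rps27l, a paralog of Rps27 and a p53 target (chromosome 9, 66946086 to 66949516), stood at 11.8, 10.8, 19.2 and 24.2 CPM in the noted libraries and at 25.9 to 28.7 CPM in the other 9 (median 27.8). All noted values were below all others, with a log2 fold change of -0.84 (SE 0.15, edgeR adjusted p = 0.000185). Rpl28 had 58.2, 47.0, 95.2 and 97.6 CPM against 113 to 126 CPM (-0.80, SE 0.13), and Rps26, near the mRNA exit, 26.5, 19.8, 40 and 45.5 CPM against 50.1 to 55.3 CPM (-0.78, SE 0.14). Rpl39, which lines the exit tunnel, had 10.9, 8.64, 23.5 and 22.6 CPM against 21.8 to 26.2 CPM (-0.73, SE 0.19). Its noted WT/WT and WT/E3A libraries were low, while both E3A/E3A libraries lay within the range of the other 9.

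**Figure D4:**
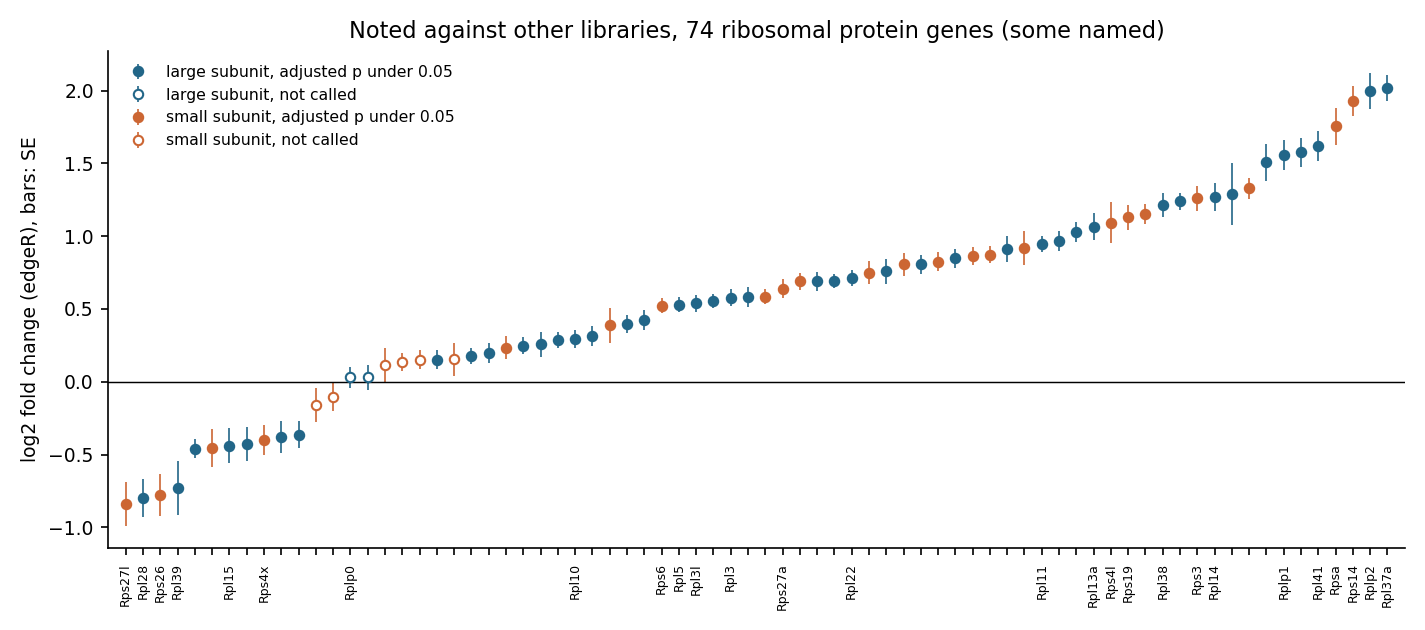
edgeR log2 fold change of the noted against the other libraries (vertical axis, bars show the SE) for 74 of the 76 ribosomal protein genes in order of size (horizontal axis, some genes named), coloured by subunit; filled points have an adjusted p under 0.05. The genes shown run from -0.84 (Rps27l) to 2.01 (Rpl37a), and open points, genes not called, lie near 0.

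Of the 19 members on the set list of named genes, 15 were called higher, 3 lower and 1 was not called, where 37.0% of all tested genes were higher and 38.2% lower. The list holds paralogs, the stalk and genes known for roles beyond the ribosome, and was chosen with earlier results known. Rpl5 and Rpl11, which with 5S rRNA bind MDM2, were at 0.53 (SE 0.05) and 0.94 (SE 0.05). Rps6, the substrate of the S6 kinases, had 174, 149.8, 170.5 and 148 CPM against 110 to 115 CPM (0.52, SE 0.05). Rps27a, made as a fusion with ubiquitin, was at 0.64 and Rpl13a, of the interferon-gamma-activated inhibitor of translation, at 1.07. Rps3, which also acts in DNA repair, was at 1.26, Rps19, the gene most often mutated in Diamond-Blackfan anemia, at 1.13 and Rpl22 at 0.71. These 8 genes were called higher in edgeR (adjusted p at most 1.30e-06). Rps4x fell (-0.40, edgeR adjusted p = 0.00329) while its paralog Rps4l rose (1.09, edgeR adjusted p = 6.76e-06), from 14.1 to 29.2 CPM on average. The fall of Rps4x lay mainly in WT/WT 1 (153 CPM) and WT/E3A 1 (122 CPM). Its noted E3A/E3A libraries (212.6 and 215.7 CPM) were just below the range of the others (216.0 to 228.5 CPM). Rpl10 was at 0.29 (edgeR adjusted p = 0.000559) and lost its call with library totals only (0.01) and with the title prefix as a block (0.10).

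Rpl3 and Rpl3l rose together. Rpl3 had 159, 142, 153 and 131 CPM in the noted libraries and 93.8 to 107 CPM in the other 9 (0.58, SE 0.06), and Rpl3l had 403, 392, 387 and 322 CPM against 251 to 271 CPM (0.54, SE 0.06). Neither gene had a noted library within the range of the rest. Their log2 ratio differed by -0.04 between noted and other libraries (exact two-sided permutation p = 0.494, adjusted 0.658). In the other 9 libraries the Rpl3l share of the pair averaged 72.5% (SD 1.30, n = 9) and in the 4 noted ones 72.0% (SD 1.05, n = 4).

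Ranges that do not overlap showed the same lean. In 47 members all 4 noted libraries were above the other 9, in 6 all were below, and in 23 the groups overlapped, against 25.9% of all tested genes above and 27.1% below. Against the mean of the 9, the median member was higher by 0.66 in WT/WT 1, 0.46 in WT/E3A 1, 0.63 in E3A/E3A 1 and 0.48 in E3A/E3A 2. The spread of single members differed more than the median did: it ran from -1.19 (Rps27l) to 2.37 (Rplp2) in WT/WT replicate 1, and the highest member of E3A/E3A replicate 2 was at 1.5 (Rpl37a). In each of the 9 other libraries the median member lay between -0.05 and 0.05 of that mean. Within title prefix C4, which held 1 noted and 3 other libraries, the median member difference was 0.48 (-1.53 to 2.26), with Rplp2 at 2.26.

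The size of the difference itself differed between genotypes. The contrast of the noted difference in E3A/E3A less its mean in WT/WT and WT/E3A was called for 42 of 76 members, 25 higher and 17 lower, where 31.4% of all tested genes were called (16.7% higher, 14.8% lower). With library totals only the split was 39 higher and 10 lower, and all tested genes leaned the same way (27.7% higher, 6.53% lower). The highest were Rpl39 (1.22, SE 0.11), Rps27l (0.97, SE 0.12), Rps26 (0.92, SE 0.10), Rpl28 (0.84, SE 0.08) and Rps25 (0.80, SE 0.10), all genes that fell in the noted libraries on average. The lowest were Rpl34 (-1.18, SE 0.33; a member only through the noted libraries), Rpl7 (-0.90, SE 0.09), Rpsa (-0.81, SE 0.15), Rplp2 (-0.77, SE 0.15) and Rpl14 (-0.61, SE 0.12), all genes that rose. In these 10 genes the noted E3A/E3A libraries thus stood closer to the 9 than the noted WT/WT and WT/E3A libraries did. Rpl7 had 588 CPM in WT/WT replicate 1, 737 in WT/E3A replicate 1, and 369 and 328 CPM in E3A/E3A replicates 1 and 2, against 169 to 187 CPM in the other 9. There is 1 noted library in WT/WT and 1 in WT/E3A, so library and genotype cannot be told apart in this contrast.

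**Figure D5:**
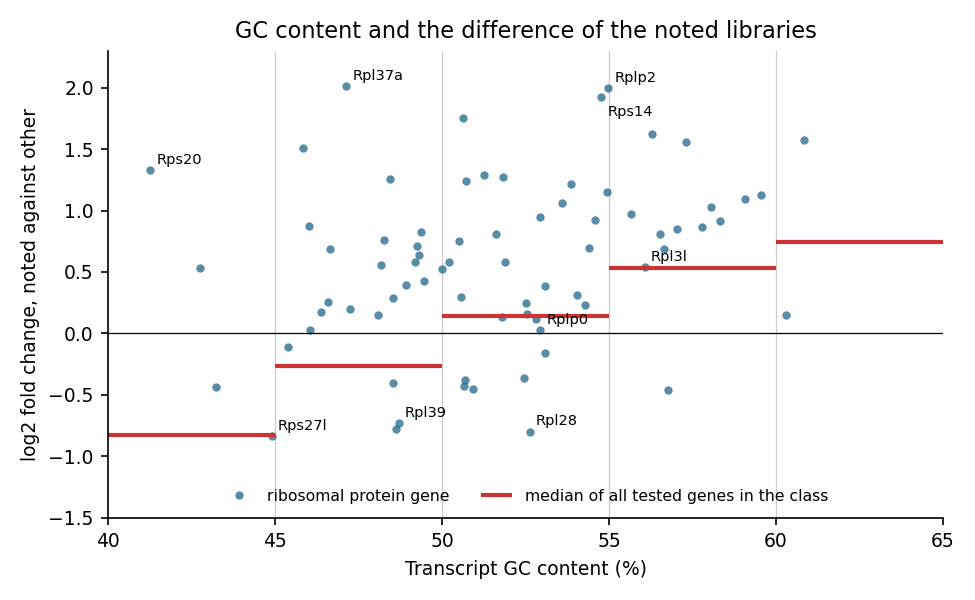
log2 fold change of the noted against the other libraries (vertical axis) against transcript GC content (%, horizontal axis) for 74 of the 76 ribosomal protein genes (points); red lines give the median of all tested genes in each GC class, and the outer classes reach beyond the axis. The red lines climb from -0.83 below 45% to 0.74 from 60%, and most points of the 3 middle classes lie above their line.

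The difference of the noted libraries moved with GC content across all genes, and less so across the ribosomal protein genes. Across 14273 genes Spearman's rho of the log2 fold change with transcript GC was 0.68, and across the 76 members 0.26, given as descriptions since genes of 1 set of libraries share depth and base composition. In genes of 45 to 50% GC the median was -0.27, and in the 23 members of that class 0.43. At 50 to 55% it was 0.14 against 0.46 in 34 members, and at 55 to 60% 0.53 against 0.91 in 13 members. Rpl37a, the member with the highest rise, has 47.1% GC, and Rps27l, which fell, 44.9%. Transcript length had a rho of -0.18 over all genes and 0.03 over the members. The part of GC content in the result was not tested.

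Members with shared sequence and members with TOP starts lay on both sides of 0. The 7 members without a shared window ranged from -0.84 (Rps27l) to 1.26 (Rps3), and the 31 with over 50% shared from -0.46 to 1.58. The median was 0.52 in those 31 and 0.71 in the rest. The 12 members with the pyrimidine start printed above or alike ranged from -0.80 (Rpl28) to 2.0 (Rplp2), with a median of 0.19, and the 44 others with a RefSeq window from -0.84 to 2.01, with a median of 0.69. Of the starts printed, Rpl14 was at 1.27, Rpl38 at 1.22 and Rpl15 at -0.44, each called in edgeR. Rpl15 was low in WT/WT 1 (46.6 CPM) and WT/E3A 1 (38.4 CPM). In E3A/E3A 1 and E3A/E3A 2 it had 67.8 and 72.7 CPM, against 70.8 to 77.3 CPM in the libraries without the note.

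Genes that work with the ribosome were mixed between noted and other libraries, where 37.0% of all tested genes were called higher and 38.2% lower. Of 7 tested ribosomal protein genes outside the name rule, 3 rose and 3 fell (median 0.14). Fau, fused to a ubiquitin-like protein, rose by 0.61 and Rps3a1 by 0.50, and Rpl36al, a paralog of Rpl36a, fell by 1.37 on the log2 scale, with 12.3 CPM (SD 2.86, n = 4) in the noted and 30.9 CPM (SD 1.41, n = 9) in the other libraries. Of 6 elongation factors 4 rose and 0 fell (median 0.55): Eef1d (1.38), Eef1b2 (1.03) and Eef1g (0.96), the exchange factor of Eef1a, and Eef2 (0.14). Eef1a1 (0.05) and the muscle form Eef1a2 (0.01) were not called. Of 18 other mRNAs with TOP starts 6 rose and 10 fell (median -0.23), with Gltscr2 at 1.85, Eif3e at -1.70 and Naca at -1.38.

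The same shares of all tested genes, 37.0% higher and 38.2% lower, stand beside the next counts. Of 31 initiation factors 18 rose and 13 fell (median 0.19), among them Eif6, which keeps the subunits apart (1.68), and Eif1a (-1.33). Of 37 ribosome biogenesis factors 24 rose and 9 fell (median 0.37), with Rrp9 at 1.26 and Nop10, of the pseudouridylation particle, at -2.87. RNA polymerase I genes gave 5 higher and 2 lower of 13 (0.02), with the rDNA factor Ubtf at 1.52. The mTORC1 list gave 6 and 5 of 16 (0.03), with Rps6kb1 at -0.96 and Akt1 at 0.83. Mitochondrial ribosomal proteins, which belong to another ribosome, gave 45 higher and 22 lower of 77 (0.27), and nuclear oxidative phosphorylation genes 42 and 26 of 76 (0.31). Each of these lists has calls in both directions, apart from the elongation factors. In the 3 genotype comparisons, with 13 or 9 libraries, edgeR called 0 genes of any of these lists.

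Markers of cell types and of library make-up also moved with the note, as did most tested genes (37.0% called higher, 38.2% lower). The 10 cardiomyocyte markers summed to 136374 to 194264 CPM in the noted libraries and to 92554 to 105710 CPM in the other 9, with 5 genes higher, among them Tnni3 (1.37) and Tnnc1 (1.46), and 2 lower, among them Pln (-2.19). The 8 fibroblast markers summed to 1858 to 4377 CPM against 1209 to 1407 CPM, with 4 higher, Col1a1 (1.95) among them, and 4 lower, Lum (-1.76) among them. The 6 smooth muscle markers summed to 820 to 917 CPM against 686 to 782 CPM (2 higher, 2 lower). Sums of the endothelial (8 genes), macrophage (8), lymphocyte (7), blood (6), white adipocyte (8), epicardial (7) and atrial (6) markers overlapped between the groups, and so did those of the lung markers (5), of which Sftpa1 and Scgb1a1 were at 0 in the noted libraries. The skeletal muscle markers (8) summed to 982 to 1222 CPM against 1190 to 1336 CPM. Of the 5 tested, 4 were called higher and 1 lower (median 0.52), unlike the direction of the sum. Poorly polyadenylated and nuclear RNAs (9 in the files) summed to 44486 to 55768 CPM against 30694 to 41772 CPM, most of it Rn45s, the rRNA precursor (45562 against 30917 CPM on average, 0.56). The part of these markers in the difference of the ribosomal protein genes was not tested.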

How the data were processed

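Polyadenylated RNA of 13 mouse hearts had been sequenced as single-end 100-base reads, per the labels' protocols. The authors aligned the reads with STAR 2.4.0 and counted them with featureCounts 1.4.4, per the submitters' processing notes, which name mm10 and GRCm38. The deposited values are whole read counts per gene symbol, 1 file per library. Strand setting, annotation and how multi-mapping reads were treated are not given in the sources used here. Each library was assigned to its genotype by its label. The labels do not say that every sample is a separate animal, so p-values measure the spread between these samples.

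The tests used edgeR 4.0.16 in R 4.3.3: genes kept by filterByExpr, TMM scaling, and the robust quasi-likelihood F test. Calls are at a Benjamini-Hochberg adjusted p under 0.05 over all tested genes. A fit held the 3 genotypes, another genotype and the note, and the last the 6 combinations. In the tables used for ratios 0.5 was added to each count. DESeq2 1.42.0, limma 3.58.1 (voom with quality weights), RLE factors, library totals only, no filter, the title prefix as a block, 9 libraries and leaving out each library were alternatives. Reads are not independent molecules. The SE of a log2 fold change is its absolute size divided by the square root of edgeR's F statistic. It thus rests on the spread between these samples. Transcript length and GC content came from GENCODE M21 (GRCm38), the shortest RefSeq-linked principal transcript, and were available for all 76 members. The fits were tested on simulated counts. The members, gene lists and tests were chosen with earlier results of these data known. Named members were a set list of 22 genes, where measured, with the 5 highest and 5 lowest called log2 fold changes of a comparison, or the 3 lowest unadjusted p-values where none was called. Values of 2 members are not reported here, though both are in every count and median. Windows shared with other genes, GC classes and promoter motifs were examined after the data were seen.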

Additional observations from a re-analysis of the deposited data

Results flagged for a closer look

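Within a group of 4 to 10 libraries, a single library was marked when its gap to the nearest other was too large a part of the group's range (Dixon's 95% limits). Over 50 groups looked at, chance marks about 1 in 20, and the groups overlap. The noted WT/WT replicate 1 and WT/E3A replicate 1 stood apart within their genotypes in the share of reads on ribosomal protein genes (1.51 and 1.31%). They did so in Rpl37a (299 and 293 CPM), Rplp2 (702 and 658 CPM), Rps14 (776 and 703 CPM) and Rpl3l (403 and 392 CPM), where they were high. In Rps27l (11.8 and 10.8 CPM) and Rpl28 (58.2 and 47.0 CPM) they were low. Rpl3 marked WT/WT replicate 1 alone (159 CPM). E3A/E3A holds 2 noted libraries, and a rule on the gap of a single library can miss 2 that are far together. Their shares of reads, 1.53 and 1.31%, were above those of E3A/E3A replicates 3 to 5 (0.989 to 1.03%), though neither was marked. Among libraries without the note, WT/E3A replicate 3 was low in Rpl28 (113 CPM, against 119.6 CPM or more in the other 8), and WT/WT replicate 2 was low in Rplp0 within WT/WT (435 CPM).

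The difference between noted and other libraries was itself different in E3A/E3A hearts from that in the other genotypes for 42 of the 76 members, by a contrast in edgeR. In the same contrast 31.4% of all tested genes were called, so such differences were not limited to the members. With 1 noted library in WT/WT and 1 in WT/E3A, the contrast compares those libraries.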

How the results depend on the processing

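The genotype comparisons had 0 members called under every alternative run, leaving out each library among them. Leaving out 1 library, the median member log2 fold change ranged from -0.05 to 0.29 in E3A/E3A against WT/WT, from -0.20 to 0.14 in WT/E3A against WT/WT and from 0.02 to 0.26 in E3A/E3A against WT/E3A. Fitted on the 9 libraries without the note it was 0.014, 0.0045 and 0.0064. With the title prefix as a block it was -0.06, 0.05 and -0.10. For noted against other libraries, 57 to 70 members were called over the alternatives with all libraries, where 56.3 to 75.7% of all tested genes were called. Without 1 library, 64 to 71 members were called, where 66.7 to 76.2% of all tested genes were called. The member median then ranged from 0.54 to 0.62. The median moved to 0.29 with library totals only and to 0.47 with the title prefix as a block, and Rplp0 turned to -0.25 with library totals only. The cause was not tested. Rpl3l to Rpl3 ratios without 1 library ranged from 0.03 to 0.08, 0.03 to 0.13 and -0.07 to 0.02 in the 3 genotype comparisons, and from -0.07 to -0.02 for the note. In the 9 libraries without the note the ratios were 0.11, 0.05 and 0.06. No paired analysis was possible because the labels give no replicate numbers, and those used here follow accession order and pair nothing. The title prefix, used as a block above, marks no replicate. The basis of the note, the meaning of the prefix and the unstated handling of multi-mapping reads limit every result on the noted libraries.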

Other observations

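Rpl13a, on the set list of named genes, is described again here after its values were seen. It had 584, 528, 485 and 342 CPM in WT/WT 1, WT/E3A 1, E3A/E3A 1 and E3A/E3A 2, against 222 to 248 CPM in the other 9. All noted libraries were above the rest. Its exons overlap other annotated genes (Gm45713, Mir5121 and Snord33) over 35.4% of their bases. Whether reads of those genes were counted with Rpl13a is not given in the sources used here.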
